A study of Mus musculus with 25 samples.

Results

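Intestinal epithelial identity is held by a small set of transcription factors, and 8 of them were followed here: the nuclear receptors Hnf4a, Hnf4g and Vdr, the caudal homeobox genes Cdx1 and Cdx2, the Krüppel-like factors Klf4 and Klf5, and the ETS factor Elf3. They were taken by gene symbol from a table of 49452 genes, where each matched 1 row, and all 8 passed the filter on low values. RNA was measured by poly(A)-selected, stranded RNA sequencing in distal colon of C57BL/6 mice aged 6 weeks, with 5 mice in each of 5 genotypes (25 libraries). Nemofl/fl mice carry a floxed gene for NEMO (Ikbkg), through which IκB kinase is activated in NF-κB signalling, and served as controls. NEMOIEC-KO mice lack NEMO in intestinal epithelial cells, and the other 3 genotypes are NEMOIEC-KO mice that also carry Il12b-/- (lacking p40, a chain of both IL-12 and IL-23), Il12a-/- (lacking p35, the other chain of IL-12) or Il23a-/- (lacking p19, the other chain of IL-23). The study asked what the loss of each chain does to colonic inflammation in NEMOIEC-KO mice. The labels name neither the Cre driver nor the mutant alleles.

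HNF4 and CDX factors bind enhancers of absorptive enterocytes and keep genes of lipid handling, brush border and adhesion active. KLF5 is known from dividing crypt cells and KLF4 from differentiated cells nearer the lumen, while ELF3 is an epithelial factor that inflammatory signals can induce. VDR, the vitamin D receptor, binds DNA with a retinoid X receptor and controls genes of calcium and metal transport.

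FPKM, fragments scaled by transcript length and by the size of the library, is a level per transcript length, so levels of different genes can be set side by side. Ikbkg was 9.08 ± 1.14 FPKM (SD, n = 5) in Nemofl/fl and 4.08 ± 1.1 FPKM in NEMOIEC-KO, and its group mean lay between 3.34 and 3.98 FPKM in the double mutants. Il12b RNA was 0.994 ± 0.223 FPKM in the Il12b-labelled libraries against 0.171 ± 0.0799 FPKM in NEMOIEC-KO, and Il12a RNA was 1.2 ± 0.586 against 0.421 ± 0.313 FPKM in the Il12a-labelled libraries. Both thus went against a plain reading of the labels. Il23a RNA was 0.214 ± 0.0427 FPKM in the Il23a-labelled libraries and 0.311 ± 0.308 FPKM in NEMOIEC-KO, with overlapping values, so RNA did not check that label either, and FPKM of a whole gene cannot show a partial deletion. Relative depth, read from the smallest steps of the values, lay between 0.702 and 1.16, and absolute depth is unknown. Sex, read from RNA, was uneven: 0 of 5 mice were female in Nemofl/fl, 1 in NEMOIEC-KO, 2 in each of the Il12b and Il12a genotypes and 4 in the Il23a genotype. All 5 Nemofl/fl libraries and 3 NEMOIEC-KO libraries carry one code in their labels, and the other 2 NEMOIEC-KO libraries share a second code with all double mutants but 1, so code and genotype largely coincide.

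Over the 25 libraries Elf3 was the most abundant member (mean 414 FPKM), followed by Cdx1 (293), Klf4 (246), Hnf4a (196), Vdr (93.4), Klf5 (90.6), Cdx2 (13.6) and Hnf4g (3.97 FPKM). Within each related pair one gene dominated. The Nemofl/fl ratio of FPKM was 41.3 ± 4.49 (SD, n = 5) for Hnf4a to Hnf4g, 21.7 ± 5.17 for Cdx1 to Cdx2 and 3.17 ± 0.66 for Klf4 to Klf5. Genotype accounted for 61.6% of the variance of log2 values in Elf3 and 51.8% in Vdr, but for 11.9% in Hnf4a and 18.1% in Klf5.

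Vdr and Elf3 are shown with their upstream sequence because they moved most clearly and in opposite directions, and Klf4 because its level followed that of Vdr from mouse to mouse. The bases overlap no annotated exon of the gene and are from RefSeq on GRCm38.p6, minus strand for all 3 genes, given 5′ to 3′ as transcribed. Those of Klf4 and Elf3 lie before the annotated gene. That of Vdr lies upstream of its RefSeq start but inside the gene as annotated by GENCODE (15:97854425-97910630), where 1 of 6 annotated transcripts starts at that promoter and the gene extends further upstream. Capitals mark a GC box (GGGCGG) or a CACCC box (CACCC) on either strand.
Vdr, chr15:97908311-97908546: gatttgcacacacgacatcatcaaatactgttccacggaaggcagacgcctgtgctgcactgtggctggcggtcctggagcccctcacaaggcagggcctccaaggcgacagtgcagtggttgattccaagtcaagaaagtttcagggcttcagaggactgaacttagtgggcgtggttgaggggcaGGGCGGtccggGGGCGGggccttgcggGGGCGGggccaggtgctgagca
Klf4, chr4:55532476-55532725: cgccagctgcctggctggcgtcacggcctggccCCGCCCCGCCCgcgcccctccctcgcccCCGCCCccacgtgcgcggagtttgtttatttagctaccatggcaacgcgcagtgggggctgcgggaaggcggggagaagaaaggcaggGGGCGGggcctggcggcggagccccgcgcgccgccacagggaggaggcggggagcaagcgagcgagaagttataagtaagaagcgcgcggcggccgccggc
Elf3, chr1:135258569-135258722: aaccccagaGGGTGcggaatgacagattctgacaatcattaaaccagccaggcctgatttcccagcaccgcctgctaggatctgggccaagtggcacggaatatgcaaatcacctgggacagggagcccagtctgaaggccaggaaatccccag
GC boxes stood in the Vdr and Klf4 windows (3 and 4 matches, of which 2 in Klf4 share 1 base) and not in that of Elf3, while a CACCC box stood in that of Elf3 and not in the other two. A second CACCC match of Elf3 lies in transcribed sequence and is not printed. Of all 32851 promoter windows of 250 bases, 32.7% held a GC box and 52% a CACCC box. The other motifs searched on both strands were HNF4 (CAAAGTCCA, in 0.384% of windows), CDX (TTTATG, 10.8%), an NF-κB site (1.21%), an interferon-stimulated response element (2.98%) and a TATA box (TATAAA, 12.4%). None of these 5 matched the windows of the 3 genes in the form searched. The NF-κB site was searched in 1 narrow form only. The run ggaaatcccc near the end of the Elf3 window, read on the opposite strand, differed from that form at 1 base, with G in place of A. Other forms of the site were not searched, so the windows, that of Elf3 among them, cannot be said to lack an NF-κB site. The motifs were chosen after the data were seen, the GC box after the sequences were, and a match is a description of letters only.

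**Figure D1:**
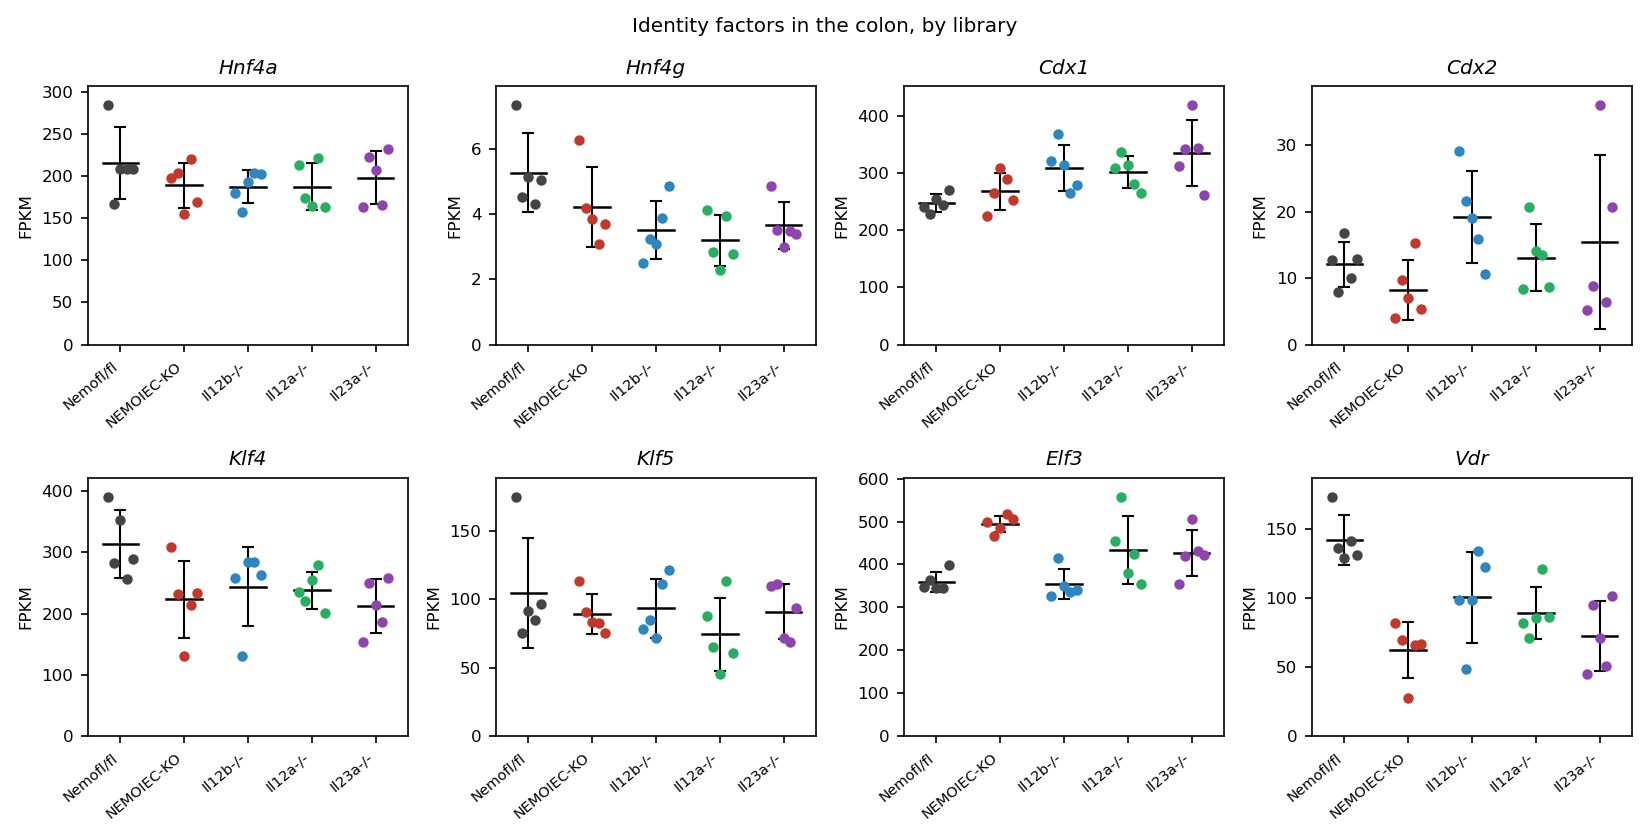
FPKM of the 8 factors (linear axis from 0) in each library of the 5 genotypes, where Il12b-/-, Il12a-/- and Il23a-/- stand for the NEMOIEC-KO double mutants. Points are mice, the long bar is the mean and the whiskers are 1 SD (n = 5). Vdr lay between 129 and 173 FPKM in Nemofl/fl and between 27.5 and 82.2 FPKM in NEMOIEC-KO.

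In the colon of NEMOIEC-KO mice Vdr was lower and Elf3 higher than in Nemofl/fl, the other 6 factors did not pass the test, and the groups of both called genes were fully apart. In this comparison 32.2% of the 19266 genes tested passed limma's adjusted p below 0.05 (11.9% higher and 20.3% lower), so 2 of 8 factors is a share close to that of all genes. The median log2 fold change of the 8 was −0.24, against −0.08 over all genes. In bulk tissue, fewer cells of a type and less RNA per cell cannot be told apart.

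Vdr, the vitamin D receptor, was 173, 136, 129, 141 and 131 FPKM in Nemofl/fl replicates 1 to 5 and 82.2, 69.5, 27.5, 65.7 and 66.7 FPKM in those of NEMOIEC-KO. Every NEMOIEC-KO mouse lay below every control, and replicate 3 was lowest. That mouse was the only female of its group. It also had the group's lowest smooth muscle score (mean log2 level of markers, 6.24) and highest epithelial score (8.05), and the part of each was not tested. The level was 0.416 times that of the control (95% interval 0.279 to 0.621), a log2 fold change of −1.26 ± 0.28 (SE, limma, adjusted p = 0.00202). In the Il12b-labelled mice Vdr was 98.8, 48.7, 98.8, 134 and 123 FPKM, and in the Il12a-labelled mice 82.2, 70.9, 85.7, 121 and 85.9 FPKM. Most of these values lay between those of the first 2 genotypes. Against NEMOIEC-KO the log2 differences were 0.70 ± 0.28 (SE, limma, adjusted p = 0.079) and 0.58 ± 0.28 (adjusted p = 0.17), and neither passed the test. Against Nemofl/fl they were −0.57 (limma, adjusted p = 0.363) and −0.69 (adjusted p = 0.178), with intervals of the ratio from 0.452 to 1.01 and from 0.417 to 0.926, and every Il12a-labelled mouse lay below every control. With sex as a covariate both differences from NEMOIEC-KO passed (0.83, limma adjusted p = 0.00941, and 0.72, adjusted p = 0.0367), and the first also passed without Il12b-labelled replicate 2 (0.94, adjusted p = 0.0126). Other settings made them smaller. Without NEMOIEC-KO replicate 3 they were 0.43 (limma, adjusted p = 0.255) and 0.31 (adjusted p = 0.462), with the library code as a term 0.33 (adjusted p = 0.576) and 0.21 (adjusted p = 0.76), and with the epithelial score as a covariate 0.27 (adjusted p = 0.905) and 0.26 (adjusted p = 0.925). In the Il23a-labelled mice Vdr was 44.8, 94.7, 71.3, 50.6 and 102 FPKM. This was 0.489 times the Nemofl/fl level, with no overlap (log2 fold change −1.03 ± 0.28, SE, limma, adjusted p = 0.0105), and differed from NEMOIEC-KO by 0.23 ± 0.28 (adjusted p = 0.866). With sex as a covariate the difference from Nemofl/fl was −0.48 (limma, adjusted p = 0.236), and with the smooth muscle score as one it was −0.63 (adjusted p = 0.256). As no Nemofl/fl mouse and 4 of 5 Il23a-labelled mice were female, sex and genotype are largely confounded there.

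Hnf4a, which drives the enterocyte program together with its close relative Hnf4g, lay between 166 and 285 FPKM in Nemofl/fl and between 155 and 221 FPKM in NEMOIEC-KO. The ranges overlapped, and the NEMOIEC-KO level was 0.884 times that of the control, with an interval of 0.728 to 1.07 (limma, adjusted p = 0.323). In the 3 double mutants the group means of Hnf4a lay between 187 and 198 FPKM, and the log2 differences from NEMOIEC-KO were −0.01, −0.01 and 0.06 for Il12b, Il12a and Il23a (SE 0.14 each, limma, adjusted p from 0.937 to 0.971). Hnf4g was 7.34, 4.54, 5.13, 4.3 and 5.04 FPKM in Nemofl/fl and 6.27, 4.18, 3.86, 3.08 and 3.69 FPKM in NEMOIEC-KO, a log2 difference of −0.30 ± 0.18 (SE, limma, adjusted p = 0.21). Its lowest group was the Il12a-labelled one, with 4.12, 2.85, 2.29, 3.93 and 2.79 FPKM, all below the lowest control. That difference from Nemofl/fl (−0.65 ± 0.18, SE, limma, adjusted p = 0.0703) missed the threshold, as did those of the Il12b-labelled mice (−0.53, adjusted p = 0.205) and the Il23a-labelled mice (−0.47, adjusted p = 0.0587). Against NEMOIEC-KO, Hnf4g differed by −0.23, −0.34 and −0.16 in the Il12b, Il12a and Il23a genotypes, and none passed. Hnf4a and Hnf4g passed in none of the 10 comparisons.

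Cdx1, the more abundant caudal factor, was 241, 229, 255, 245 and 271 FPKM in Nemofl/fl and 226, 265, 309, 291 and 254 FPKM in NEMOIEC-KO, a log2 difference of 0.11 ± 0.11 (SE, limma, adjusted p = 0.457). It was 313, 342, 420, 345 and 262 FPKM in the Il23a-labelled mice, where only 1 value fell within the control range. There it was 1.34 times the Nemofl/fl level (log2 fold change 0.42 ± 0.11, SE, limma, adjusted p = 0.00845). With sex as a covariate this was 0.33 (limma, adjusted p = 0.112), and with the smooth muscle score also 0.33 (adjusted p = 0.167). Its log2 differences from NEMOIEC-KO were 0.20, 0.17 and 0.31 in the Il12b, Il12a and Il23a genotypes, and none passed. Cdx2, the master factor of intestinal fate, spread widely. It was 3.93, 9.64, 7.02, 15.3 and 5.29 FPKM in NEMOIEC-KO and 29.2, 21.6, 19, 15.9 and 10.6 FPKM in the Il12b-labelled mice. The groups overlapped by 1 library of each, and the level was 2.37 times higher (interval 1.29 to 4.35, log2 fold change 1.25 ± 0.42, SE, limma, adjusted p = 0.0402). This call was marginal: leaving out single libraries gave adjusted p from 0.0181 to 0.107, and 8 of the 10 such fits missed the threshold, as did median-of-ratios scaling (1.12, limma, adjusted p = 0.0777) and quantile normalization (1.16, adjusted p = 0.0611). Cdx2 lay between 7.95 and 16.7 FPKM in Nemofl/fl, 8.33 and 20.7 FPKM in the Il12a-labelled and 5.17 and 36 FPKM in the Il23a-labelled mice. The differences were −0.62 for NEMOIEC-KO against Nemofl/fl and 0.70 and 0.63 for the Il12a and Il23a genotypes against NEMOIEC-KO, all with limma adjusted p of 0.261 or more.

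Klf4, known for cell cycle exit and goblet cell maturation, was 391, 283, 353, 256 and 289 FPKM in Nemofl/fl and 308, 231, 131, 213 and 234 FPKM in NEMOIEC-KO. Only the NEMOIEC-KO replicate 1 reached the control range, and the log2 difference of −0.52 ± 0.21 (SE, limma, adjusted p = 0.0609) missed the threshold. It passed within the libraries of 1 code (−0.73, limma, adjusted p = 0.0304) and without NEMOIEC-KO replicate 1 (−0.65, adjusted p = 0.0246), but was −0.35 (adjusted p = 0.212) without replicate 3, −0.26 (adjusted p = 0.495) with the smooth muscle score as a covariate and −0.31 (adjusted p = 0.759) with the epithelial score. Klf4 differed from NEMOIEC-KO by 0.12, 0.13 and −0.05 in the Il12b, Il12a and Il23a genotypes. In the Il23a-labelled mice it was 0.672 times the Nemofl/fl level (log2 fold change −0.57 ± 0.21, SE, limma, adjusted p = 0.0449), with overlapping groups. That call was also marginal, with adjusted p from 0.03 to 0.122 when single libraries were left out and −0.17 (limma, adjusted p = 0.605) with sex as a covariate. Klf5, a factor of proliferating crypt cells, lay between 75.7 and 175 FPKM in Nemofl/fl and between 75.1 and 114 FPKM in NEMOIEC-KO (log2 difference −0.18 ± 0.23, SE, limma, adjusted p = 0.579). Nemofl/fl replicate 1 alone held the value of 175 FPKM, and without it the difference was 0.02. Klf5 differed from NEMOIEC-KO by 0.06, −0.31 and 0.01 in the Il12b, Il12a and Il23a genotypes and passed in none of the 10 comparisons.

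Elf3, an ETS factor of the differentiating epithelium, was 347, 363, 344, 345 and 398 FPKM in Nemofl/fl and 498, 467, 484, 517 and 506 FPKM in NEMOIEC-KO. Every NEMOIEC-KO library lay above every control, at 1.38 times the level (interval 1.19 to 1.59, log2 fold change 0.46 ± 0.10, SE, limma, adjusted p = 0.00211). In the Il12b-labelled mice it was 327, 416, 350, 337 and 340 FPKM, again with no overlap with NEMOIEC-KO (0.714 times, interval 0.616 to 0.826, log2 fold change −0.49 ± 0.10, SE, limma, adjusted p = 0.00226). Within the libraries of 1 code, where 2 NEMOIEC-KO mice remain, that difference was −0.45 (limma, adjusted p = 0.12). Against Nemofl/fl the Il12b-labelled mice differed by −0.03 (interval of the ratio 0.849 to 1.14). Values were more mixed in the other double mutants: 454, 558, 381, 424 and 355 FPKM with Il12a-/- and 355, 420, 506, 432 and 422 FPKM with Il23a-/-. Neither differed from NEMOIEC-KO past the threshold (−0.20, limma adjusted p = 0.187, and −0.22, adjusted p = 0.451). The annotated antisense gene Gm26642 overlaps Elf3 and averaged 1.03 FPKM.

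**Figure D2:**
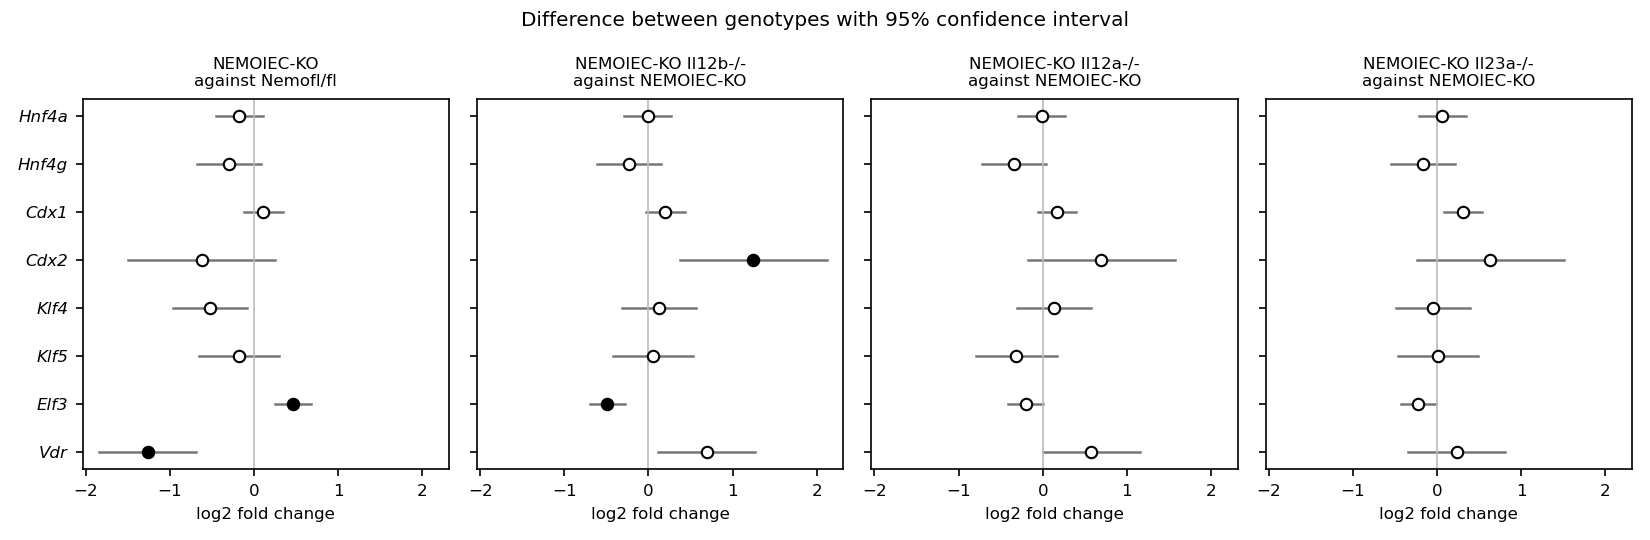
Log2 fold change of each factor (horizontal axis) with its 95% confidence interval in the 4 main comparisons. Filled points passed limma's adjusted p below 0.05. These are Vdr (−1.26) and Elf3 (0.46) in the first panel and Cdx2 (1.25) and Elf3 (−0.49) in the second, and none in the last 2.

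Across comparisons, 1 factor was higher and 1 lower in the Il12b-labelled mice against NEMOIEC-KO, where 19.9% of all genes tested passed (14.0% higher and 5.94% lower). No factor passed with Il12a-/- (9.61% of genes) or Il23a-/- (0.0830% of genes) against NEMOIEC-KO. By limma's unadjusted p below 0.05, 1 and 2 of the 8 factors and 5635 and 2026 of the 19266 genes passed there. Against Nemofl/fl, no factor passed in the Il12b-labelled (0.369% of genes) or Il12a-labelled mice (1.34%), and 3 passed in the Il23a-labelled mice, Cdx1 higher and Klf4 and Vdr lower (29.5%, of which 12.6% higher and 17.0% lower). In the first 2 of these, 2 and 5 of the 8 factors had an unadjusted limma p below 0.05, as did 2708 and 3812 of the 19266 genes. None passed between 2 double mutants, where 0.410% (Il12a against Il12b), 5.11% (Il23a against Il12b) and 1.16% (Il23a against Il12a) of genes did and 1, 1 and 0 of the 8 factors had an unadjusted limma p below 0.05, as did 1250, 4962 and 3856 of the 19266 genes. The comparisons against one genotype share its libraries, so their values are not independent of each other.

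RNA of markers of other cell types also differed in NEMOIEC-KO colon, and its part in these results was not tested. The mean log2 level of 12 epithelial structure markers was 7.72 ± 0.07 (SD, n = 5) in Nemofl/fl, 7.99 ± 0.06 in NEMOIEC-KO, 7.72 ± 0.09 with Il12b-/-, 7.79 ± 0.13 with Il12a-/- and 7.95 ± 0.03 with Il23a-/-, and 5 of the 12 markers were called higher and none lower in NEMOIEC-KO. Of 12 smooth muscle markers, 9 were lower and none higher there, and their summed level ranged from 3343 to 11838 FPKM in Nemofl/fl and from 1868 to 5538 FPKM in NEMOIEC-KO. Of 8 neutrophil markers 6 were higher, of 10 T cell markers 9, and of 10 macrophage markers 7, with 1 macrophage marker lower. Of 8 fibroblast markers 4 were lower and none higher, with sums of 773 to 1233 FPKM in Nemofl/fl and 559 to 692 FPKM in NEMOIEC-KO, and of 9 B and plasma cell markers 3 were higher and none lower, with sums of 155 to 278 and 292 to 696 FPKM. Of 8 endothelial markers 1 and of 10 enteric neuron and glia markers 2 were lower, and none was higher. Of all genes tested, 11.9% were called higher and 20.3% lower in NEMOIEC-KO against Nemofl/fl. Summed neutrophil markers ranged from 253 to 425 FPKM in Nemofl/fl and from 479 to 1146 FPKM in NEMOIEC-KO, mostly Ly6g, which colon epithelium can also express. With the epithelial score as a covariate no factor passed in NEMOIEC-KO against Nemofl/fl (Vdr −0.84, limma adjusted p = 0.45, and Elf3 0.22, adjusted p = 0.582), nor in the Il12b-labelled mice against NEMOIEC-KO (Elf3 −0.24, adjusted p = 0.621, and Cdx2 1.47, adjusted p = 0.459) or in the Il23a-labelled mice against Nemofl/fl. That score nearly follows genotype, so the 2 cannot be told apart in such a fit.

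Each factor was also taken relative to the epithelial score of its own library, by a two-sided exact permutation test with adjustment over 32 tests. The smallest possible exact p was 0.00794. It became 0.0363 after adjustment only because several tests reached it, and a test that reached it alone would not have passed. The score itself differed between genotypes (mean 7.72 in Nemofl/fl, 7.99 in NEMOIEC-KO, 7.72 with Il12b-/- and 7.79 with Il12a-/-). Its shift enters every difference relative to it with the opposite sign, so factor and score cannot be told apart here either. In NEMOIEC-KO against Nemofl/fl, Vdr (−1.53) and Klf4 (−0.79) were lower and Elf3 (0.20) higher relative to that score, each with no overlap and an exact adjusted p of 0.0363. The other 5 did not pass. In the Il12b-labelled mice against NEMOIEC-KO, Cdx1 was higher (0.47) and Elf3 lower (−0.22), and in the Il12a-labelled mice Cdx1 (0.37) and Vdr (0.77) were higher, at the same exact adjusted p. None passed with Il23a-/-. In the limma fit without that score, Klf4 in NEMOIEC-KO, Cdx1 with Il12b-/- and Il12a-/-, and Vdr with Il12a-/- had not passed. The share of all genes that would pass or not overlap on this scale was not computed, so these calls have no background beside them. Both Elf3 results depended on the markers: relative to Epcam alone they were 0.037 (exact permutation test, adjusted p = 0.668) and −0.11 (adjusted p = 0.392). A ratio within a library removes scaling, and of 12 tests on the ratios of Hnf4a to Hnf4g, Cdx1 to Cdx2 and Klf4 to Klf5 none passed. The lowest was Cdx1 to Cdx2 in the Il12b-labelled mice against NEMOIEC-KO, with a log2 difference of −1.04 (exact p = 0.0159, adjusted p = 0.19). Among 12 tests, a ratio that alone reached the smallest possible exact p would not have passed. That none passed therefore does not show that the genes of a pair moved alike.

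Genes known as targets were listed for each factor. Beside the counts stand the shares of all genes tested that passed. These were 32.2% in NEMOIEC-KO against Nemofl/fl, and 19.9% with Il12b-/- and 9.61% with Il12a-/- against NEMOIEC-KO. Of 13 HNF4 targets 11 were tested, and in NEMOIEC-KO against Nemofl/fl 2 were higher and 5 lower (median −0.45, all genes −0.08). Pck1, of gluconeogenesis, fell by 2.47 on the log2 scale (limma, adjusted p = 0.0016). Apob and Mttp, which build lipoproteins, rose by 1.18 and 0.57. With Il12b-/- 4 were higher and 1 lower than in NEMOIEC-KO: Pck1 rose by 2.07 and Apob fell by 0.90. In the Il12a-labelled mice 3 were higher and none lower, among them Ttr (1.17). The HNF4 factors themselves passed in none of these comparisons.

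Of 12 CDX targets 11 were tested, with 5 higher and 4 lower in NEMOIEC-KO against Nemofl/fl (median 0.28). Krt20, a keratin of differentiated colonocytes, rose from 369 ± 38.9 to 809 ± 45.4 FPKM (SD, n = 5, log2 fold change 1.14, limma adjusted p = 2.86e-05), and the cadherin Cdh17 rose by 0.82. Car1, a carbonic anhydrase, and the peptide transporter Slc15a1 were lower (−1.66 and −1.52). Against NEMOIEC-KO, 2 were higher and 5 lower in the Il12b-labelled mice, with Car1 (1.79) and Gucy2c (0.38) up and Krt20 (−0.96) and Cdh17 (−0.85) down. In the Il12a-labelled mice 1 was higher and 5 lower: Gucy2c rose by 0.40, and Cdh17 (−0.80) and Krt20 (−0.59) were among the 5.

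Of 11 vitamin D receptor targets only 7 were tested, and the induction marker Cyp24a1 was listed at 0 in every library of 3 genotypes. In NEMOIEC-KO none was higher and 2 were lower: the manganese exporter Slc30a10, from 7.88 ± 2.8 to 0.162 ± 0.0955 FPKM (SD, n = 5, log2 fold change −3.59, limma adjusted p = 0.000244), and the calcium pump Atp2b1 (−0.70). A count of 2 of 7 is close to the share of all genes tested that passed there, 32.2%. Slc30a10 was higher than in NEMOIEC-KO in the Il12b-labelled mice (2.28) and the Il12a-labelled mice (2.32), in each case the only target called. Of 6 genes that make, carry or take up vitamin D 2 were tested, Cyp27a1 and Cyp2r1, of which Cyp27a1 was lower in NEMOIEC-KO (−0.76, limma adjusted p = 0.00396). In the Il12b, Il12a and Il23a genotypes against NEMOIEC-KO, Cyp27a1 differed by 0.20, 0.29 and −0.04 and Cyp2r1 by −0.17, −0.12 and −0.18, and none passed.

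Of 8 cell cycle genes known as KLF4 or KLF5 targets, Ccnd1 (0.87) and Ccne1 (0.73) were higher and Cdkn1c (−0.60) lower in NEMOIEC-KO against Nemofl/fl. In the Il12b-labelled mice Cdkn1c was higher (0.85) and Ccnd1 lower (−0.68) than in NEMOIEC-KO, and in the Il12a-labelled mice only Ccnd1 was called (−0.66). Of 7 ELF3 targets 4 were higher in NEMOIEC-KO and none lower (median 0.80). Nos2, the inducible nitric oxide synthase, rose from 0.606 ± 0.222 to 35.5 ± 23.8 FPKM (SD, n = 5, log2 fold change 4.74, limma adjusted p = 8.8e-05), and the collagenase Mmp13 by 2.66. Immune and stromal cells also make both. With Il12b-/- 5 of the 7 were lower than in NEMOIEC-KO (Nos2 −5.11, Mmp13 −2.26), and in the Il12a-labelled mice 2 (Nos2 −3.76, Mmp13 −2.54). No gene of these 5 target lists passed with Il23a-/- against NEMOIEC-KO. The genes with the smallest p there included Ttr (0.69) and Acaa2 (0.38) for HNF4, Heph (−0.30) and Cdh17 (−0.29) for CDX, Cldn2 (0.58) and Trpv6 (−2.72, listed at 0 in some libraries) for VDR, Ccnd2 (0.32) and Cdkn1c (0.28) for KLF4 and KLF5, and Nos2 (−2.66) and Ccl20 (−1.07) for ELF3.

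**Figure D3:**
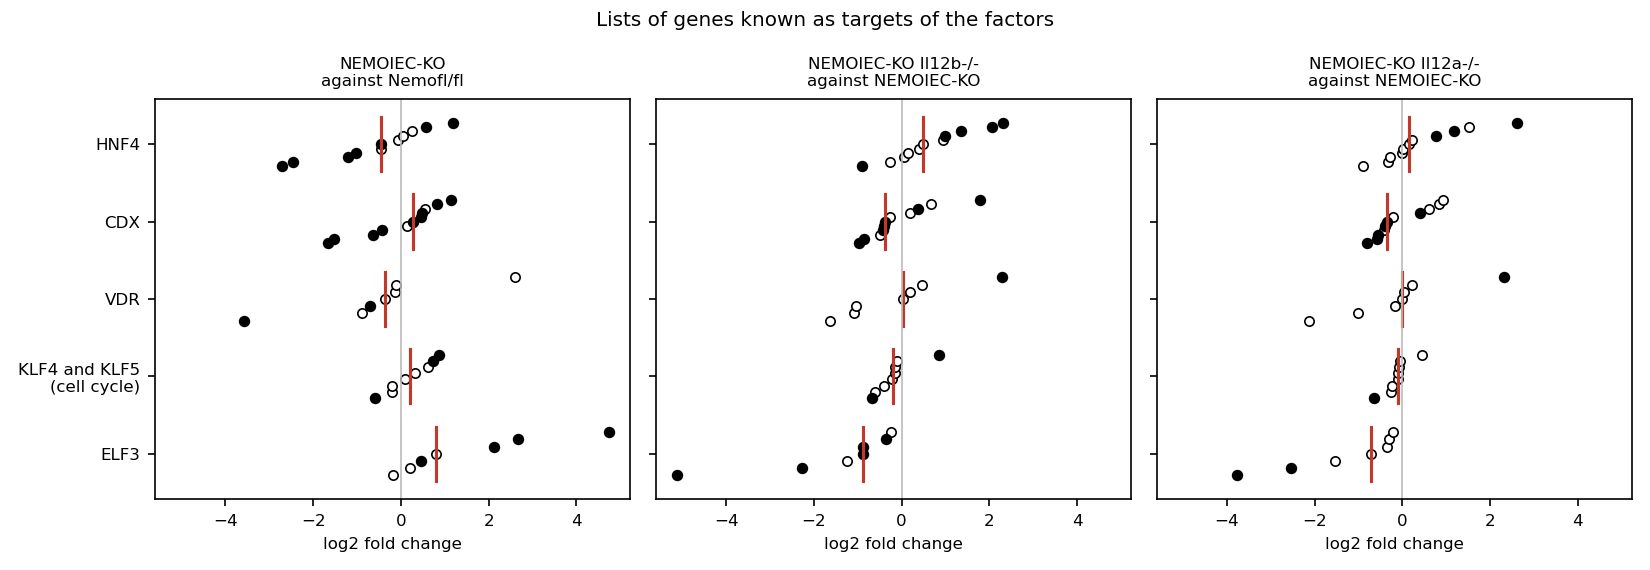
Log2 fold change (horizontal axis) of each tested gene of the 5 target lists in 3 comparisons. Filled points passed limma's adjusted p below 0.05 and the red bar is the median of a list. The ELF3 list has its median at 0.80 in the first panel and its lowest point, Nos2, at −5.11 in the second.

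Other transcription factors of the epithelium were listed as well. The shares of all genes given with the target lists (32.2%, 19.9% and 9.61%) apply to these lists too. Of 18, 17 were tested, and 3 were higher and 4 lower in NEMOIEC-KO against Nemofl/fl. The retinoid-controlled homeobox gene Isx rose by 2.69 and the lipid regulator Creb3l3 by 2.16, while Ovol1 (−0.94) and Nr5a2 (−0.81), a nuclear receptor of intestinal steroid synthesis, were lower. In the Il12b-labelled mice 6 were higher and 2 lower than in NEMOIEC-KO, with Ovol1 (0.76) and Foxa2 (0.72) up and Prdm1 (−1.62) and Creb3l3 (−1.33) down. In the Il12a-labelled mice Foxa2 was higher (0.59) and Creb3l3 (−1.39) and Prdm1 (−1.23) were lower. Of 9 crypt and secretory factors, Spdef (0.60), of goblet cells, was higher and 5 were lower in NEMOIEC-KO, among them the stem cell factor Ascl2 (−0.98) and Atoh1 (−0.72). Ascl2 (0.93) and the tuft cell factor Pou2f3 (0.47) were higher in the Il12b-labelled mice than in NEMOIEC-KO, and Pou2f3 (0.47) in the Il12a-labelled mice.

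Among 11 other Krüppel-like factors, Klf10 was higher (0.61) and 4 were lower in NEMOIEC-KO, led by Klf15 (−1.61) and Klf9 (−0.89). Klf10 was lower than in NEMOIEC-KO in the Il12b-labelled (−0.63) and Il12a-labelled mice (−0.67). Klf6 (−0.52) and Klf13 (0.25) were also called in the former and Klf2 (0.51) in the latter. Among 16 other nuclear receptors, the bile acid receptor Nr1h4 (0.53) and Pparg (0.43) were higher and 3 were lower, led by Nr1i3 (−1.0) and the mineralocorticoid receptor Nr3c2 (−0.64). Nr1i3 (1.02) and Rarg (0.65) were higher and Nr1h4 lower (−0.73) in the Il12b-labelled mice than in NEMOIEC-KO. Rxrb (0.24), a partner of VDR, was higher and Pparg lower (−0.42) in the Il12a-labelled mice. With Il23a-/- none of these 4 lists held a gene past the threshold against NEMOIEC-KO. The smallest p were those of Prdm1 (−0.80) and Foxa2 (0.45), Spdef (0.37) and Myb (0.29), Klf10 (−0.48) and Klf6 (−0.42), and Nr1h4 (−0.41) and Rxrb (0.21).

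Some members varied together from mouse to mouse within genotypes. With values centred within each genotype, Pearson's r over the 25 libraries was 0.90 for Vdr and Klf4 and 0.84 for Hnf4g and Klf5. Hnf4a followed Vdr (0.73), Klf4 (0.68) and Klf5 (0.66), while Cdx1 ran against Vdr (−0.60). Vdr and Klf4 also ran against the mean log2 level of neutrophil markers (−0.81 and −0.75) and of T cell markers (−0.62 and −0.72). These are descriptions: both values of a pair come from 1 library and share its tissue piece, depth and base composition. The genes most like Vdr, of 12757 searched over all 25 libraries, were Epb41l3 (r = 0.96), Appl2 (0.96) and Abat (0.95). Those most like Klf4 were Phlpp2 (0.91), Slc15a1 (0.90) and Slco2a1 (0.90), those most like Elf3 Prr13 (0.88), Stk25 (0.84) and Bcl3 (0.82), and those most like Cdx1 Sgta (0.93), Gga1 (0.91) and Bad (0.90). Cdx2 was most like Cnpy2 (0.86), B4galt4 (0.85) and Epn3 (0.85), Klf5 like Rnf44 (0.90), Elf1 (0.89) and Mpzl2 (0.89), Hnf4a like Eps8l2 (0.82), Cnnm4 (0.81) and Fer1l6 (0.81), and Hnf4g like Clint1 (0.87) and Nupl1 (0.84). In this search the values were not centred, so r also holds differences between genotypes. After centring, r of Elf3 fell to 0.65 with Prr13, 0.51 with Stk25 and 0.56 with Bcl3.

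**Figure D4:**
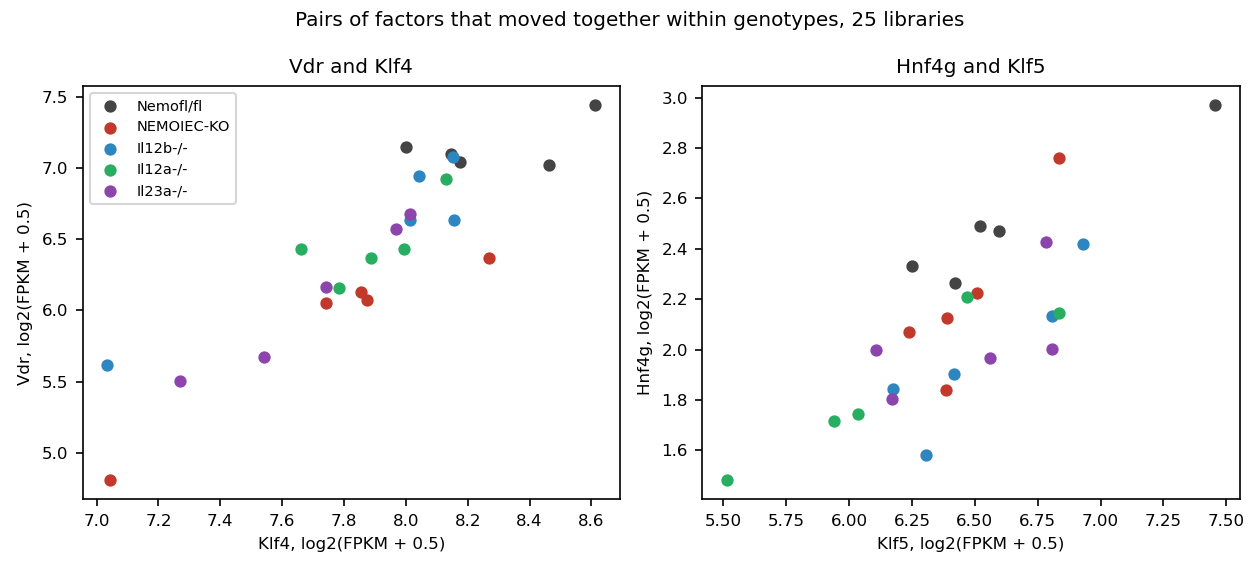
Log2(FPKM + 0.5) of Vdr against Klf4 and of Hnf4g against Klf5, with 1 point for each of the 25 libraries, coloured by genotype. Points of each pair rise together, with r of 0.90 and 0.84 after centring within genotypes.

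Base composition of the libraries moved with some members. The GC tilt of a library, the median log2 deviation of the most GC-rich transcripts minus that of the most GC-poor, averaged −0.12 in Nemofl/fl and −0.08 in NEMOIEC-KO, against 0.04 with Il12b-/-, 0.11 with Il12a-/- and 0.05 with Il23a-/-. Nemofl/fl replicate 1 stood lowest at −0.36, with the highest mitochondrial share of the series (13.3%), and held the highest Hnf4a, Hnf4g, Klf4, Klf5 and Vdr of its group. Its smooth muscle score was also the lowest of its group (7.06). Centred within genotypes, Cdx1, with 62.1% GC in its longest transcript, followed the tilt (r = 0.64, n = 25), and Hnf4g, with 41.5% GC, ran against it (r = −0.58). Elf3 (r = 0.55) and Cdx2 (0.52) also followed the tilt, and Klf5 (−0.48) ran against it. The values for Hnf4a, Klf4 and Vdr were −0.22, −0.17 and −0.15. With the tilt as a covariate, a setting added after the data were seen, Cdx2 in the Il12b-labelled mice against NEMOIEC-KO was 0.90 (limma, adjusted p = 0.111), and Klf4 in the Il23a-labelled mice against Nemofl/fl was −0.50 (adjusted p = 0.109). The Vdr and Elf3 calls of the main comparisons and the Cdx1 call were retained.

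**Figure D5:**
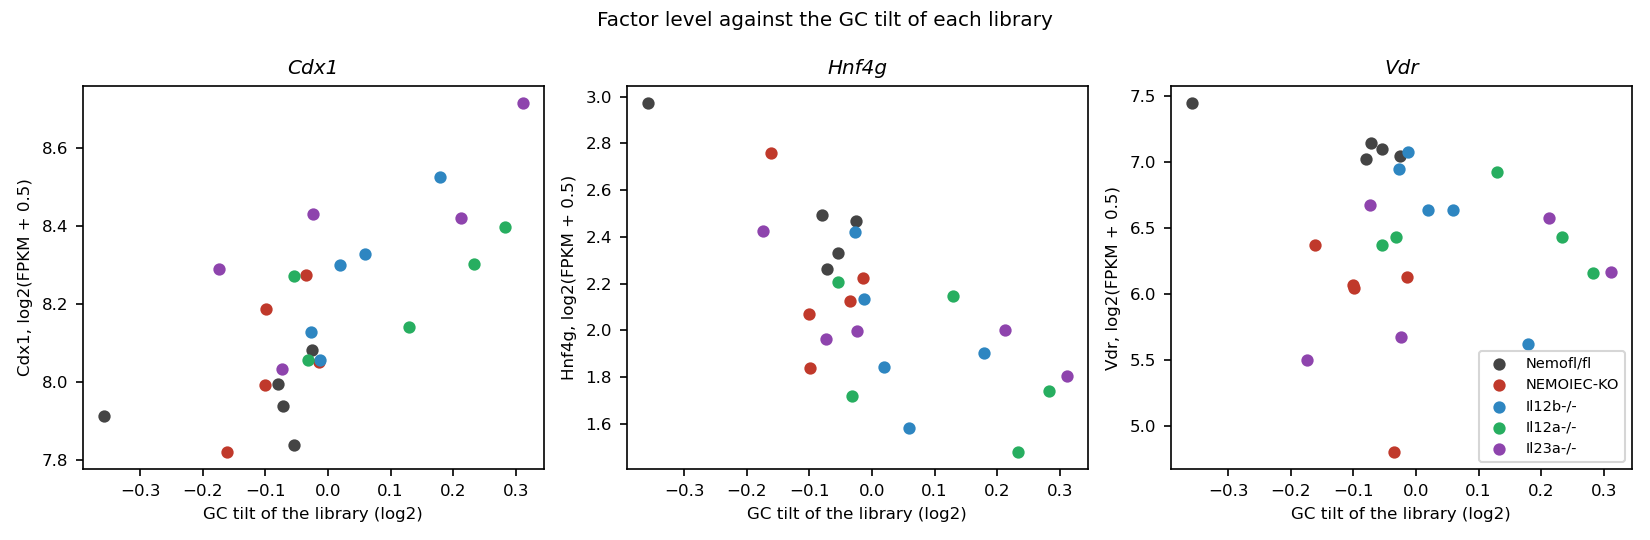
Log2(FPKM + 0.5) of Cdx1, Hnf4g and Vdr (vertical axes) against the GC tilt of each library (log2, horizontal axes), with 1 point for each of the 25 libraries, coloured by genotype. Cdx1 rises and Hnf4g falls with the tilt, and the point at −0.36 is Nemofl/fl replicate 1.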

How the data were processed

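The authors deposited FPKM per gene and library. The tools listed are Cufflinks 2.1.1, DESeq2 1.10.1 and TopHat2 2.0.10, with build GRCm38, per the submitters' processing notes, and their roles are not given in the sources used here. The values were used as log2(FPKM + 0.5), for the 19266 genes that reached 0.2 FPKM in 5 or more libraries. All 25 libraries entered 1 limma fit (limma 3.58.1, R 4.3.3) with 1 mean per genotype, a variance trend and 20 residual degrees of freedom. Tests were two-sided, with Benjamini-Hochberg adjustment over all genes of a comparison and a threshold of 0.05. The fit was tested on simulated data. Exact permutation tests used scipy 1.17.1. Gene positions are GENCODE on GRCm38, and promoters are RefSeq.

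The members, lists and tests were chosen with earlier results of these data known. Named are all members and, per list and main comparison, the 2 largest changes past the threshold in each direction, or the 2 smallest p where none passed. The 3 genes most like each member have the largest r among genes of at least 1 FPKM. Some items that these rules select are not reported here. Alternatives changed the pseudocount, filter, scaling, trend, samples, library code, tissue scores and sex. Replicate numbers do not pair the mice. A fold change contains the added 0.5 and understates that of low genes. Depth is unknown, so no counting interval is given.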

Additional observations from a re-analysis of the deposited data

Results flagged for a closer look

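In 6 of 40 groups of 5 libraries a single mouse stood apart from the other 4 by Dixon's criterion, which chance meets in about 1 of 20 groups. Nemofl/fl replicate 1 was the high one for Hnf4g (7.34 FPKM), Klf5 (175 FPKM) and Vdr (173 FPKM). It is the library with the lowest GC tilt. Within its group it also had the lowest smooth muscle score (7.06, the next being 8.15) and the highest epithelial score (7.80). The part of these in the values was not tested. Replicate 2 of NEMOIEC-KO Il12b-/- was low for Klf4 (130 FPKM) and high for Elf3 (416 FPKM). Replicate 1 of NEMOIEC-KO Il23a-/- was high for Hnf4g (4.88 FPKM).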

How the results depend on the processing

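The 2 Vdr and Elf3 calls of NEMOIEC-KO against Nemofl/fl kept direction and threshold in every alternative run except that with the epithelial score as a covariate, and their log2 differences with single libraries left out ran from −1.39 to −0.99 and from 0.45 to 0.50. Of the values of single factors and genes under alternatives, 3418 kept direction and side of the threshold, 438 lost a call, 35 gained one and 111 changed sign, and of counts 316 held within 1.5 times and 41 moved. A further 39 differences between genotypes that have no value in the text gave 960 values, of which 889 stayed the same, 2 gained a call and 69 changed sign. Over all genes, calls for NEMOIEC-KO against Nemofl/fl numbered 6202, 2072 with the smooth muscle score and 115 with the epithelial score as a covariate. Those for Il12b against NEMOIEC-KO numbered 3833, 1420 with the library code, 2427 with the smooth muscle score, 50 with the epithelial score and 741 within code K002000079. Those for Il12a against NEMOIEC-KO numbered 1851, 478 with only the 2 genotypes, 177, 157, 22 and 29 in the order of the code, smooth muscle, epithelial and within-code settings, and 291 with the GC tilt. Those for Il23a against NEMOIEC-KO numbered 16, and between 0 and 120 otherwise. Those for Il23a against Nemofl/fl numbered 5686, 1167 with sex, 442 with the smooth muscle score and 112 with the epithelial score as a covariate. Those for Il12a against Nemofl/fl numbered 259, 1001 with only the 2 genotypes and 528 with the smooth muscle score. With sex, calls for Il12a against NEMOIEC-KO numbered 2254. For Il12b against NEMOIEC-KO they numbered 3254 without the filter, 2870 with median-of-ratios scaling and 3269 with the GC tilt. The share of called genes that were higher moved with median-of-ratios scaling from 36.9% to 51.4%, from 70.2% to 42.8% and from 58.3% to 34.1% in the first 3 comparisons, and the median of all genes for Il12b against NEMOIEC-KO from 0.11 to 0.00. Here Il12b, Il12a and Il23a stand for the double mutants, and the cause of the changes below was not tested.

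Without the filter on low values, the count of factors called was 1 for Il12b against NEMOIEC-KO. With median-of-ratios scaling, the count of factors called was 1 for Il12b against NEMOIEC-KO, the log2 difference changed sign for Klf4 (−0.013) and Klf5 (−0.080) in Il12b against NEMOIEC-KO and for Klf5 (−0.022) in Il23a against NEMOIEC-KO. With quantile normalization, the log2 difference changed sign for Cdx1 (−0.017) in NEMOIEC-KO against Nemofl/fl, for Hnf4a (0.062) in Il12b against NEMOIEC-KO, for Hnf4a (0.026) in Il12a against NEMOIEC-KO and for Klf5 (−0.029) in Il23a against NEMOIEC-KO. In fits of only the 2 genotypes compared, the count of factors called was 1 for Il12a against Nemofl/fl. With the library code as a term, as within the libraries of code K002000079 for the same double mutants against NEMOIEC-KO, the count of factors called was 0 for Il12b against NEMOIEC-KO, the log2 difference changed sign for Klf4 (−0.18), Klf5 (−0.15), Cyp2r1 (0.075) and Cyp27a1 (−0.20) in Il12b against NEMOIEC-KO, for Klf4 (−0.17), Cyp2r1 (0.13) and Cyp27a1 (−0.11) in Il12a against NEMOIEC-KO, for Hnf4a (−0.094), Klf5 (−0.20), Vdr (−0.27) and Cyp2r1 (0.057) in Il23a against NEMOIEC-KO and for Elf3 (0.032) in Il12b against Nemofl/fl. With the smooth muscle score as a covariate, the count of factors called was 1 for Il12b against NEMOIEC-KO, 1 for Il12a against Nemofl/fl and 0 for Il23a against Nemofl/fl, the log2 difference changed sign for Hnf4a (0.013) and Klf4 (−0.047) in Il12b against NEMOIEC-KO, for Hnf4a (0.018) and Klf4 (−0.10) in Il12a against NEMOIEC-KO and for Klf5 (−0.019) and Cyp27a1 (0.0081) in Il23a against NEMOIEC-KO. With the epithelial score as a covariate, the count of factors called was 0 for NEMOIEC-KO against Nemofl/fl, 0 for Il12b against NEMOIEC-KO and 0 for Il23a against Nemofl/fl, the log2 difference changed sign for Cdx1 (−0.056) in NEMOIEC-KO against Nemofl/fl, for Hnf4a (0.20), Hnf4g (0.16), Klf4 (−0.091) and Cyp27a1 (−0.15) in Il12b against NEMOIEC-KO and for Hnf4a (0.14), Klf4 (−0.024) and Klf5 (0.041) in Il12a against NEMOIEC-KO. With sex as a covariate, the count of factors called was 1 for Il12a against NEMOIEC-KO and 0 for Il23a against Nemofl/fl, the log2 difference changed sign for Hnf4a (0.043) in Il12b against NEMOIEC-KO, for Hnf4a (0.039) in Il12a against NEMOIEC-KO and for Klf4 (0.25) and Cyp27a1 (0.18) in Il23a against NEMOIEC-KO. With the GC tilt as a covariate, the count of factors called was 1 for Il12b against NEMOIEC-KO, the log2 difference changed sign for Hnf4a (0.036) in Il12b against NEMOIEC-KO, for Hnf4a (0.056) in Il12a against NEMOIEC-KO and for Hnf4g (0.0032) and Klf4 (0.0073) in Il23a against NEMOIEC-KO. With Epcam alone in place of the epithelial score, the number past the threshold relative to epithelium was 6 for NEMOIEC-KO against Nemofl/fl, the difference relative to epithelium changed sign for Elf3 (0.090) in Il12a against NEMOIEC-KO and for Klf4 (0.093) in Il23a against NEMOIEC-KO. Leaving out single libraries, the count of factors called ran from 1 to 2 in Il12b against NEMOIEC-KO, from 0 to 1 in Il23a against Il12b. The log2 difference then ran for Klf5 from −0.28 to 0.023 in NEMOIEC-KO against Nemofl/fl, Elf3 from −0.085 to 0.012 in Il12b against Nemofl/fl, Hnf4a from −0.079 to 0.052, Klf4 from −0.055 to 0.33 and Klf5 from −0.045 to 0.15 in Il12b against NEMOIEC-KO, Hnf4a from −0.082 to 0.045, Klf4 from −0.044 to 0.26 and Cyp2r1 from −0.22 to 0.0049 in Il12a against NEMOIEC-KO, Hnf4a from −0.0049 to 0.13, Klf4 from −0.23 to 0.078, Klf5 from −0.065 to 0.11, Vdr from −0.036 to 0.39 and Cyp27a1 from −0.20 to 0.11 in Il23a against NEMOIEC-KO. The log2 difference of the ratio ran for Hnf4a to Hnf4g from −0.024 to 0.24 in NEMOIEC-KO against Nemofl/fl, Klf4 to Klf5 from −0.090 to 0.25 in Il12b against NEMOIEC-KO, Klf4 to Klf5 from −0.22 to 0.12 in Il23a against NEMOIEC-KO. The number of ratios past the threshold ran from 0 to 1 in Il12b against NEMOIEC-KO. The difference relative to epithelium ran for Hnf4g from −0.072 to 0.17 in Il12b against NEMOIEC-KO, Klf5 from −0.28 to 0.037 and Elf3 from −0.10 to 0.027 in Il12a against NEMOIEC-KO, Hnf4g from −0.23 to 0.0049, Klf4 from −0.21 to 0.11, Klf5 from −0.038 to 0.15 and Vdr from −0.013 to 0.42 in Il23a against NEMOIEC-KO. The number past the threshold relative to epithelium ran from 0 to 7 in NEMOIEC-KO against Nemofl/fl. It ran from 0 to 6 in Il12b and from 0 to 2 in Il12a against NEMOIEC-KO. How many tests were adjusted together depended on the library left out, and was smaller in some runs than with all libraries. The counts within such a range, and that of the ratios, were thus not adjusted alike. A higher count can come from the smaller number of tests.

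Same-numbered mice did not deviate together (median r 0.0071 over 50 pairs, against 0.0086 over 200 pairs of different numbers), so the number pairs nothing. The replicate block left the count of factors called at 2, 2, 0 and 0 in the 4 main comparisons, with 6205, 3806, 1772 and 8 genes called over all. For Il23a against Nemofl/fl it left that count at 3, but Klf4 lost its call (limma, adjusted p = 0.061) and Hnf4g gained one (−0.47, adjusted p = 0.048). By sign flips within the replicate block, the number past the threshold relative to epithelium was 0 for NEMOIEC-KO against Nemofl/fl, 0 for Il12b and 0 for Il12a against NEMOIEC-KO. That test cannot give a p under 0.0625, so its losses say nothing about stability. Tests that leave out a library can pass, but their adjusted p depends on how many comparisons are adjusted together. Relative to epithelium in NEMOIEC-KO against Nemofl/fl, it then reached up to 0.0508 for Vdr and Klf4 and 0.102 for Elf3 (exact permutation test). Depth is unknown and limits Hnf4g and Cdx2, the members of lowest level, most.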
